A study of Mus musculus with 25 samples.

Results

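The subject is the drug and xenobiotic metabolism enzymes of the distal colon: 68 protein-coding genes among 49452 entries of the deposited table. Members were chosen by symbol, as genes whose name starts with Cyp2, Cyp3, Cyp4, Ces1, Ces2, Ugt1a, Ugt2, Gsta, Gstm, Gstt or Sult1, with a mean of at least 0.5 FPKM (fragments assigned to a gene, scaled to its transcript length and to the library's total) over the 25 libraries. Of 167 symbols that start this way, 143 were protein-coding, and 75 of those lay under 0.5 FPKM, 15 of them at 0 in every library. The members just inside the threshold were Cyp26b1 at 0.542 FPKM, Cyp2r1 at 0.790 FPKM and Cyp4b1 at 0.798 FPKM, and those just outside were Cyp46a1 at 0.454 FPKM, Cyp21a1 at 0.343 FPKM and Cyp2a12 at 0.327 FPKM. The letters of the rule also took in 4 cytochrome P450 genes of other families, Cyp20a1, Cyp26b1, Cyp27a1 and Cyp39a1, which are counted apart. The remaining members were 23 Cyp2, 1 Cyp3, 8 Cyp4, 4 Ces1, 6 Ces2, 3 Ugt1a, 2 Ugt2, 3 Gsta, 7 Gstm, 3 Gstt and 4 Sult1 genes.

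The study profiled whole distal colon of C57BL/6 mice by stranded poly-A RNA sequencing, with 5 mice for each of 5 genotypes, all 6 weeks old, fed chow and kept specific-pathogen-free. Nemofl/fl mice carry a floxed gene for NEMO, the regulatory subunit of the kinase that activates NF-kappaB (gene symbol Ikbkg), and served as controls. NEMOIEC-KO mice lack NEMO in intestinal epithelial cells. The other 3 groups are NEMOIEC-KO mice that also carry Il12b-/-, Il12a-/- or Il23a-/-, so all 4 mutant groups share the NEMO deletion. These alleles concern the p40 subunit shared by interleukin-12 and interleukin-23, the p35 subunit of interleukin-12 and the p19 subunit of interleukin-23. The recombinase line that deletes NEMO was not given in the sources used here, and the RNA came from whole tissue, so cells that keep NEMO are part of each library.

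Ikbkg was at 9.08 ± 1.14 FPKM (mean ± SD, n = 5) in Nemofl/fl mice and between 2.93 and 5.85 FPKM in the 20 libraries of the other groups. The cytokine alleles were not visible as lower RNA. Il12b was at 0.793, 0.790, 1.29, 0.946 and 1.15 FPKM in the Il12b-/- libraries and at no more than 0.236 FPKM elsewhere, and Il12a was at 0.610, 0.816, 1.98, 0.937 and 1.65 FPKM in the Il12a-/- libraries. Il23a was at 0.196, 0.262, 0.229, 0.150 and 0.232 FPKM in the Il23a-/- libraries, inside the range of 0.0827 to 0.805 FPKM in NEMOIEC-KO. The double mutants are therefore named by label below (Il12b-labelled and so on). Xist, which marks female tissue, exceeded 1 FPKM in 0 Nemofl/fl, 1 NEMOIEC-KO and 4 Il23a-labelled libraries and in 2 of each other double mutant, so sex and genotype are partly confounded. The libraries of Nemofl/fl and NEMOIEC-KO replicates 3 to 5 share a library code that no double mutant carries. The table gives no counts, so the depth behind each value is unknown; relative depth, read from the spacing of low values, ran from 0.702 to 1.16.

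Within each genotype 1 library was lowest in the most members, and it was also the library with the highest summed FPKM of 5 neutrophil markers (S100a8, S100a9, Csf3r, Cxcr2, Retnlg), in 5 of 5 groups. It was replicate 2 of Nemofl/fl (lowest in 35 of the 68 members, neutrophil sum 7.9 against 1.0 to 2.4 FPKM in the other 4), replicate 3 of NEMOIEC-KO (47 members, 552.4 against 9.4 to 215.2) and replicate 2 of the Il12b-labelled group (54 members, 39.8 against 0.7 to 3.1). In the Il12a-labelled group it was replicate 1 (33 members, 66.4 against 1.2 to 2.6), and in the Il23a-labelled group replicate 1 (41 members, 485.5 against 2.5 to 158.6). In the same order, these libraries were lowest of their group in 51.5%, 69.1%, 79.4%, 48.5% and 60.3% of the members and in 20.8%, 26%, 27.7%, 42.6% and 19.5% of all tested genes. For Il12a-labelled replicate 1 these shares are near each other, so low values there are not particular to the enzymes. The highest T cell marker sum lay in the same library in Nemofl/fl, NEMOIEC-KO and Il12b-labelled colon, but in replicate 5 of the Il12a-labelled and Il23a-labelled groups. Nemofl/fl replicate 2 also had the highest smooth muscle (11986.9 FPKM), fibroblast (652.4 FPKM), endothelium (77.4 FPKM) and adipocyte (73.9 FPKM) marker sums of its group. Whether neutrophils or other cells bear on the enzyme levels was not tested. Below, Il12b-labelled replicate 2 and Il12a-labelled replicate 1 are called the 2 libraries that stand apart. They were picked after the data were seen, and several counts are given with and without them. The libraries lowest in the most members of the other groups were kept. Leaving out low libraries from these 2 groups alone makes higher counts against NEMOIEC-KO or Il23a-labelled colon foreseeable, so those counts do not measure stability. They were highest of their group in 37.9% and 20.5% of all tested genes. Nemofl/fl replicate 1 was lowest in 38.2% and highest in 24% of these genes, and NEMOIEC-KO replicate 3 in 26% and 30.1%. Neither was grouped with them.

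Cells process drugs, dietary compounds and their own lipids in steps. Phase I enzymes, chiefly cytochromes P450 (Cyp) and carboxylesterases (Ces), oxidise a molecule or hydrolyse an ester, and phase II enzymes then attach glucuronic acid (Ugt), glutathione (Gst) or sulfate (Sult), which makes the product easier to export. In the gut these enzymes are made mainly by absorptive epithelial cells, and many belong to gene families that lie side by side on a chromosome and differ little in sequence. Nuclear receptors and liver- and gut-enriched factors such as HNF4 are known regulators of many of them.

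Promoter windows of the enzyme that fell furthest in NEMOIEC-KO colon, Cyp2c55, and of its neighbours in the Cyp2c cluster are shown first, because members of this cluster differ in how far they fell. RefSeq (GRCm38.p6) gave windows for 56 of the 68 members. Each line holds the 130 bases before the RefSeq transcript start, 5′ to 3′ on the gene's strand, and capitals mark matches to CAAAGTCCA, a sequence known to bind HNF4, searched on both strands.
Cyp2c55 (chr19:39006889-39007018, plus strand): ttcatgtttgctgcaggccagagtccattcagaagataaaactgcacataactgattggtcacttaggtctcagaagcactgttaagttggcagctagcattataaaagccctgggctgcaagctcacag
Cyp2c65 (chr19:39060876-39061005, plus strand): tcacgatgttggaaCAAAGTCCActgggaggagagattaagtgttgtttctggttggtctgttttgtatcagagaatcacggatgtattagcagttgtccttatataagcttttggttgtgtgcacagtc
Cyp2c67 (chr19:39649043-39649172, minus strand): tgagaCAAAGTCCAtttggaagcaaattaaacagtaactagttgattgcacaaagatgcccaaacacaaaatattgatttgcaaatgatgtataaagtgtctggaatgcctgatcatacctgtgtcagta
Cyp2c68 (chr19:39741102-39741231, minus strand): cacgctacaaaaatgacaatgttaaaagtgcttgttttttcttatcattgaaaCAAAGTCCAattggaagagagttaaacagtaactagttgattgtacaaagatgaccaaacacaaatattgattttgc
Cyp2c40 (chr19:39812815-39812944, minus strand): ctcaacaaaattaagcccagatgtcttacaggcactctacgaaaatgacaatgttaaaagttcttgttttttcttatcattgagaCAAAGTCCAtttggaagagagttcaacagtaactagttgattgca
Cyp2c69 (chr19:39886770-39886899, minus strand): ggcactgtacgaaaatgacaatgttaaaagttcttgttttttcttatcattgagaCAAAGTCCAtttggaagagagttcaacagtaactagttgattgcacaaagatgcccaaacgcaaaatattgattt
The letters CAAAGTCCA stand in 5 of these 6 windows and not in the Cyp2c55 window shown; 6 of the 7 Cyp2c members have a window. In the full windows of 250 bases before the start, the motif was found in 7.46% of the 67 member windows, all of them Cyp2c, against 0.384% of all 32851 windows. Cyp2c67, Cyp2c68, Cyp2c40 and Cyp2c69 lie beside each other and share long stretches, so their matches are not independent. Cyp2c68 holds the motif and had the smallest Il12b-labelled difference of the 7, as given below.

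Of 7 other motifs searched, also on both strands, 1 is not reported here. The shares for the other 6 follow: the dioxin response core GCGTG matched in 17.9% of member windows and 28.2% of all, the nuclear receptor half-site AGGTCA in 7.46% and 14%, the antioxidant response letters TGACNNNGC in 7.46% and 10.2%, the STAT letters TTCNNNGAA in 7.46% and 7.02%, the interferon response letters (GAAA, any 2 bases, GAAA) in 2.99% and 2.98%, and the CDX letters TTTATG in 8.96% and 10.8%. A match is a description of the letters in the window and not of binding.

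In NEMOIEC-KO colon most of these enzymes were lower than in Nemofl/fl colon. Of the 68 members, 45 fell and 4 rose in limma's fit on log2(FPKM + 0.5) at a Benjamini-Hochberg adjusted p under 0.05, while over all 19266 tested genes 32.2% were called, 20.3% lower and 11.9% higher. The median difference of the members was -0.78 on that log2 scale, against -0.08 for all tested genes. The groups did not overlap in 37 members that were lower and 4 that were higher, against 13.5% and 8.73% of all tested genes. The genes that fell include every measured Ces1, Ugt1a and Ugt2 gene, 6 of 7 Gstm genes, 15 of 23 Cyp2 genes and Cyp3a13, and the 4 that rose are Ces2f, Cyp4f18, Cyp4f40 and Cyp2j6. The summed level of the 67 enzymes other than Sult1a1 was 2402.8 ± 187.1 FPKM (SD, n = 5) in Nemofl/fl and 1440.5 ± 277.1 FPKM in NEMOIEC-KO. In whole tissue, fewer cells of a type and less RNA per cell cannot be told apart.

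**Figure D1:**
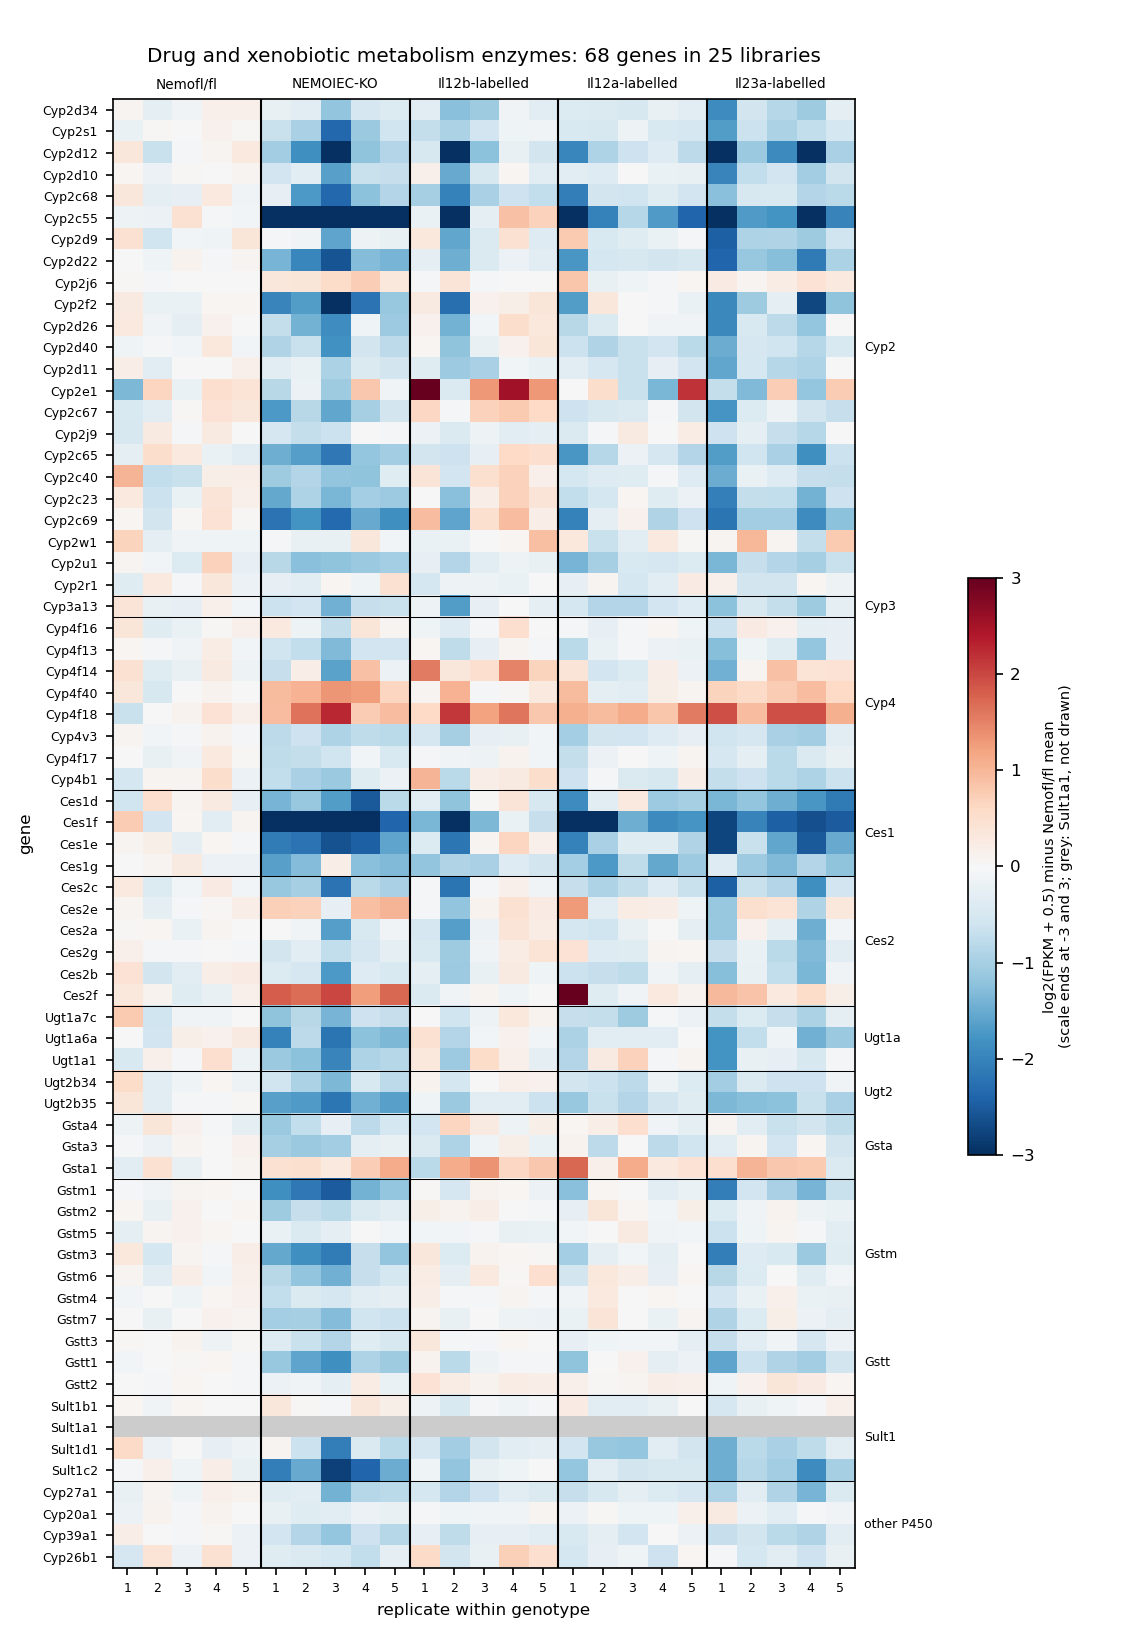
Each of the 68 enzymes (vertical axis, by family) in each of the 25 libraries (horizontal axis, replicates 1 to 5 within each genotype); colour is log2(FPKM + 0.5) minus the Nemofl/fl mean of that gene, from -3 (blue) to 3 (red), and the grey line is Sult1a1, which is not drawn. The NEMOIEC-KO columns are mostly blue, and the Il12b-labelled columns are near white apart from replicate 2. The 4 enzymes called higher in NEMOIEC-KO are in red tones there, palest for Cyp2j6. Ces2e and Gsta1, which were not called, were also higher on average in these columns.

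Markers of other cell types moved with this comparison, as the plot of enzyme and marker sums shows. The summed level of 10 epithelial markers was 8451.1 to 9476.7 FPKM in Nemofl/fl and 11042.6 to 12641.2 FPKM in NEMOIEC-KO, with 7 of 10 called higher and 0 lower, so the enzymes were lower while epithelial marker RNA was higher. Of 12 smooth muscle markers 9 were called lower (sum 3357.8 to 11986.9 FPKM in Nemofl/fl, 1864.4 to 5569.8 FPKM in NEMOIEC-KO). Of the T cell markers 5 of 5 were called higher, as were 4 of 5 neutrophil markers (sum 1.0 to 7.9 FPKM in Nemofl/fl, 9.4 to 552.4 FPKM in NEMOIEC-KO), and 4 of 7 fibroblast markers were called lower. Their part in the enzyme differences was not tested as a cause, but the count of called members was 24 with the smooth muscle score as a covariate, 13 with the neutrophil score (1 higher, 12 lower) and 0 with the epithelium score. The epithelium score separates the groups: with it the number of called genes fell from 6202 to 30 over all tested genes. Of 11 hepatocyte markers 4 had a mean of at least 1 FPKM, and the list summed to 65.3 to 91.3 FPKM in Nemofl/fl and 34.7 to 69.0 FPKM in NEMOIEC-KO. Of the 6 tested, 1 was called higher (Apoa2) and 1 lower (Ttr), while the defining genes Fga and Fgb were at or near 0 and Alb did not exceed 1.06 FPKM. Of 10 small intestinal markers 4 had a mean of at least 1 FPKM, with sums of 78.0 to 110.7 FPKM in Nemofl/fl and 53.8 to 150.1 FPKM in NEMOIEC-KO. Of the 6 tested, 2 were called higher (Fabp6 and Lyz1) and 2 lower (Rbp2 and Lct), while Sis, Fabp1 and Apoa4 were at or near 0. A list of 8 posterior Hox genes summed to 390.2 to 442.3 FPKM in Nemofl/fl and 268.4 to 395.2 FPKM in NEMOIEC-KO. Of its 7 tested genes, 3 were called lower and 0 higher. Against NEMOIEC-KO, 2 were called higher in Il12b-labelled and 1 in Il12a-labelled colon. In Il23a-labelled colon 2 were called lower against Nemofl/fl. Their part in the enzyme differences was not tested.

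**Figure D2:**
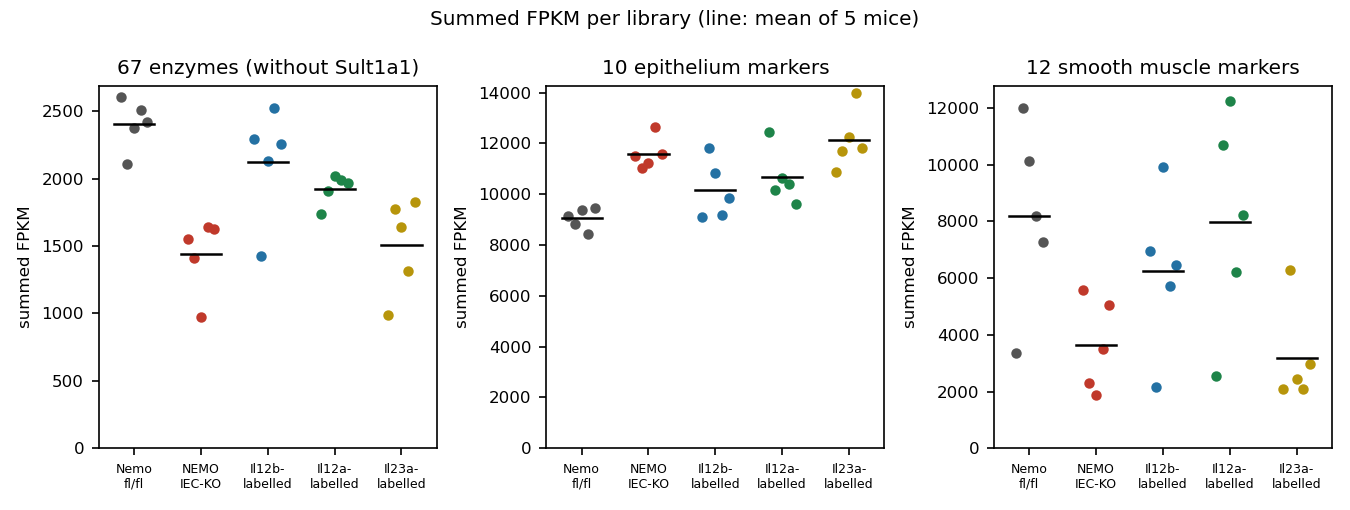
Summed FPKM per library (points, n = 5 per genotype) of the 67 enzymes other than Sult1a1, of 10 epithelium markers and of 12 smooth muscle markers, by genotype. Enzyme sums are 2106.4 to 2603.9 FPKM in Nemofl/fl and 972.4 to 1640.5 FPKM in NEMOIEC-KO, whereas epithelium marker sums are higher in NEMOIEC-KO.

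Il12b-labelled colon had higher levels of many of the enzymes than NEMOIEC-KO colon. Against NEMOIEC-KO, 35 members rose and 4 fell, while of all tested genes 19.9% were called, 14% higher and 5.94% lower. The 35 include 3 of 4 Ces1, 11 of 23 Cyp2, 6 of 7 Gstm, 3 of 3 Gstt, 3 of 3 Ugt1a and 2 of 2 Ugt2 genes. They also hold Cyp26b1, which passed the threshold of 0.5 FPKM only through its Il12b-labelled values. This comparison and the preceding one share the NEMOIEC-KO libraries. The 4 that fell were Ces2f, Cyp4f40, Cyp2j6 and Sult1b1. The median member difference was 0.61 on the log2 scale against 0.11 for all tested genes, and groups did not overlap in 15 members that were higher and 2 that were lower (11.7% and 4.1% of all tested genes). Scaling by median-of-ratios brought the all-gene median to 0.03 and the member median to 0.51, and the share of calls over all genes that were higher from 70.1% to 48.1%. Epithelial markers moved the opposite way to the enzymes (0 of 10 called higher, 6 lower), as did 3 of 5 neutrophil and 3 of 5 T cell markers, while 3 of 6 tested hepatocyte and 2 of 7 fibroblast markers were called higher. Their part in the result was not tested. Without the 2 libraries that stand apart, where a higher count was to be foreseen, 45 members were called. With the neutrophil score as a covariate the count was 18, and among libraries of 1 library code, which leaves 2 NEMOIEC-KO libraries, it was 10.

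Il12a-labelled colon showed higher levels in fewer members. Against NEMOIEC-KO 16 members rose and 1 fell (Cyp4f40), while of all tested genes 9.61% were called, 5.61% higher and 4% lower. The 16 are 6 Gstm genes, Gstt1 and Gstt3, Gsta4, Ugt1a6a, Ugt1a1, Ugt2b35, Sult1c2, Cyp2d22, Cyp2f2 and Cyp39a1, so 13 of them attach glutathione, glucuronic acid or sulfate. Among the 68 members, 7 Gstm, 3 Gstt, 3 Gsta, 3 Ugt1a, 2 Ugt2 and 4 Sult1 genes do so. The 6 Gstm genes are neighbours and the Ugt1a genes overlap, so these 13 are not independent. The median member difference was 0.40 against 0.07 for all tested genes, and groups did not overlap in 9 members that were higher and 0 that were lower (3.18% and 1.97% of all tested genes). Of the markers, 4 of 10 epithelial (sum 9612.2 to 12448.5 FPKM in Il12a-labelled colon), 2 of 5 neutrophil (1.2 to 66.4 FPKM) and 1 of 5 macrophage markers (17.3 to 33.1 FPKM) were called lower, against sums of 11042.6 to 12641.2, 9.4 to 552.4 and 18.5 to 46.3 FPKM in NEMOIEC-KO, and 0 of 12 smooth muscle markers were called; their part in the result was not tested. The count depends on single libraries: it was 33 (29 higher, 4 lower) without the 2 libraries that stand apart, 5 with the neutrophil score or the smooth muscle score as a covariate, and 1 among libraries of 1 code. It was 29 without Il12a-labelled replicate 1, 9 without replicate 2, 10 without replicate 3, 11 without replicate 4 or without replicate 5, and 10 without NEMOIEC-KO replicate 3. Among the 16, the calls of Cyp2f2, Gstt3 and Ugt1a6a were each lost in 5 of the 10 fits that leave out 1 library, and that of Gsta4 in 4 (limma adjusted p up to 0.0968).

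Il23a-labelled colon did not differ detectably from NEMOIEC-KO in any member. The count of called members was 0 of 68 in limma, and 13 had an unadjusted p under 0.05, 10 higher and 3 lower; 0.083% of all tested genes were called. The smallest adjusted p was 0.0982, for Gstm2, and the median member difference was 0.16 against 0.03 for all tested genes. Leaving out Il23a-labelled replicate 1, the library with a neutrophil sum of 485.5 FPKM, gave 1 called member. The levels of Cyp2c55 and Cyp2f2, given below, were widely spread within this group.

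Compared directly, the double mutants differed in 11 members, all between Il23a-labelled and Il12b-labelled colon and all lower in Il23a-labelled: Ces1d, Ces1e, Cyp2c23, Cyp2c65, Cyp2c67, Cyp2c69, Cyp2d22, Cyp4b1, Gstm1, Gstt3 and Sult1c2 (5.11% of all tested genes were called, 3.18% lower and 1.93% higher). This count is sensitive to libraries: it was 1 without Il12b-labelled replicate 1 or 4, 2 without Il12b-labelled replicate 3 or 5, 1 without Il23a-labelled replicate 1 or 4 and 4 without Il23a-labelled replicate 3, but 32 without Il12b-labelled replicate 2 and 38 (3 higher, 35 lower) without both libraries that stand apart. Il12a-labelled and Il12b-labelled colon differed in 0 members (12 with an unadjusted p under 0.05, all lower in Il12a-labelled; 0.41% of all tested genes called). Il23a-labelled and Il12a-labelled colon also differed in 0 members (19 with an unadjusted p under 0.05, 18 of them lower; 1.16% of all tested genes called), in 9 without Il12a-labelled replicate 1, and in 16 (3 higher, 13 lower) without the libraries that stand apart.

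Against Nemofl/fl, Il12b-labelled colon had 0 called members (13 with an unadjusted p under 0.05, 4 higher and 9 lower; 0.369% of all tested genes called; smallest adjusted p 0.0677, for Cyp4f18). Il12a-labelled colon had 2, both lower and both carboxylesterases, Ces1f by 2.36 (SE 0.45, limma adjusted p 0.0104) and Ces1g by 1.23 on the log2 scale (SE 0.26, adjusted p 0.0232), with 1.34% of all tested genes called, 0.571% lower and 0.773% higher. Il23a-labelled colon had 41, with 39 lower and 2 higher (29.5% of all tested genes called, 17% lower and 12.6% higher). Markers moved with it: 11 of 12 smooth muscle (sum 2077.9 to 6283.5 FPKM in Il23a-labelled colon) and 5 of 7 fibroblast markers (186.6 to 304.1 against 318.8 to 652.4 FPKM) were called lower. In the same comparison 7 of 10 epithelial (10888.7 to 13982.6 FPKM), 4 of 5 T cell (9.4 to 17.2 against 2.3 to 8.2 FPKM), 3 of 5 neutrophil (2.5 to 485.5 FPKM) and 2 of 6 tested small intestinal markers (78.4 to 310.0 FPKM) were called higher, and their part in the result was not tested. The 3 comparisons share the Nemofl/fl libraries, also with that of NEMOIEC-KO, and in each of the 3 the library codes of the groups differ. Il23a-labelled colon has the most female libraries, and with Xist as a covariate its count of 41 was 7. Without Il23a-labelled replicate 1, and likewise without replicate 4, it was 24. The count of 2 in Il12a-labelled colon was 1 without Il12a-labelled replicate 2 or 4 and without Nemofl/fl replicate 1 or 3.

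Ordered by mean FPKM, Nemofl/fl had the highest mean in 39 of the 67 members other than Sult1a1, and NEMOIEC-KO had the lowest in 42 and Il23a-labelled colon in 16. The means ran Il12b-labelled over Il12a-labelled over Il23a-labelled in 38 members. These orders are descriptions, since the direct tests between neighbouring double mutants called 0 members.

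**Figure D3:**
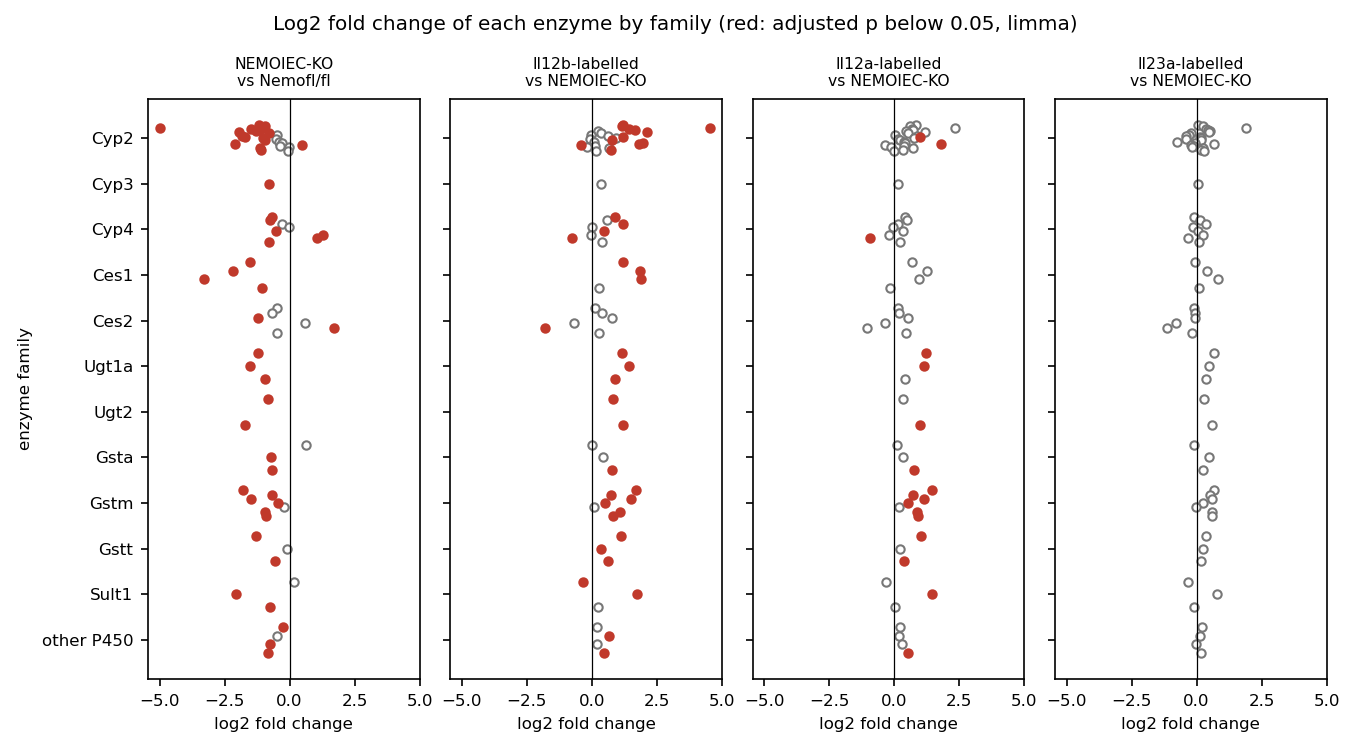
Log2 difference of each enzyme (points, log2(FPKM + 0.5) scale) by enzyme family in 4 panels, the first NEMOIEC-KO minus Nemofl/fl and the others the double mutants minus NEMOIEC-KO; red points passed an adjusted p of 0.05 in limma. Red points are mostly below 0 in the first panel, mostly above 0 for Il12b-labelled and Il12a-labelled colon, and there are none for Il23a-labelled colon.

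Among the phase I enzymes, all 7 Cyp2c members fell in NEMOIEC-KO, 6 of them in 2 blocks on chr19 (GRCm38 chr19:39007019-39093944 and chr19:39608842-39886799), and Cyp2c55 had the lowest difference of all members. Differences of double mutants are given against NEMOIEC-KO unless another group is named. Cyp2c55, an arachidonic acid-oxidising P450 known from the colon, was at 49.2, 48.7, 75.4, 52.6 and 51.4 FPKM in Nemofl/fl and at 2.12, 0.659, 0.142, 1.93 and 3.09 FPKM in NEMOIEC-KO. It was at 47.6, 5.08, 45.6, 102 and 88.1 FPKM in Il12b-labelled, 0.229, 13.0, 30.1, 16.6 and 10.1 FPKM in Il12a-labelled and 1.16, 16.6, 15.3, 1.39 and 13.4 FPKM in Il23a-labelled libraries. No NEMOIEC-KO library was above 3.09 FPKM and no Nemofl/fl library below 48.7 FPKM, while Il12b-labelled replicate 2, Il12a-labelled replicate 1 and Il23a-labelled replicates 1 and 4 stayed low within their groups. It fell by 4.97 on the log2 scale in NEMOIEC-KO (SE 0.89, limma adjusted p 0.000381) and rose by 4.53 in Il12b-labelled against NEMOIEC-KO (SE 0.89, adjusted p 0.00133). In Il12a-labelled and Il23a-labelled colon the differences from NEMOIEC-KO were 2.33 (SE 0.89) and 1.89 (SE 0.89), with adjusted p of 0.0914 and 0.461.

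Cyp2c69 was at 2.09, 1.21, 2.08, 2.90 and 2.05 FPKM in Nemofl/fl, and at 0.0443, 0.220, 0, 0.375 and 0.199 FPKM in NEMOIEC-KO. It was at 4.26, 0.339, 3.01, 4.27 and 2.37 FPKM in Il12b-labelled, 0.117, 1.56, 2.22, 0.846 and 1.12 FPKM in Il12a-labelled and 0.0483, 0.724, 0.708, 0.181 and 0.573 FPKM in Il23a-labelled libraries. The Nemofl/fl and NEMOIEC-KO libraries did not overlap, and 1 NEMOIEC-KO library is listed at 0. Cyp2c69 fell by 1.94 in NEMOIEC-KO (adjusted p 0.00125) and rose by 2.13 in Il12b-labelled colon (adjusted p 0.000986, both limma). Its 3 neighbours behaved unequally: Cyp2c67 and Cyp2c40 fell by 1.13 and 0.94 and rose by 1.66 and 1.17 in Il12b-labelled colon, whereas Cyp2c68, the most abundant at 45 ± 9.60 FPKM in Nemofl/fl, fell by 1.29 and had a difference of 0.22 (SE 0.34, adjusted p 0.683) in Il12b-labelled colon. Cyp2c65 fell by 1.5 and rose by 1.44, and Cyp2c23 fell by 1.18 and rose by 1.18. The 4 genes of the second block are close copies, and how reads shared among them were split is not given in the sources used here.

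The Cyp2d cluster (chr15:82370527-82794294) held the P450 with the highest level. Cyp2d34 was at 238, 182, 206, 249 and 249 FPKM in Nemofl/fl and 190.3, 175, 98.1, 156 and 168 FPKM in NEMOIEC-KO, with 179, 93.9, 107, 207 and 176 FPKM in Il12b-labelled, 167, 165, 161, 189.9 and 177 FPKM in Il12a-labelled and 59.7, 152, 123, 107 and 183 FPKM in Il23a-labelled libraries. NEMOIEC-KO replicate 1 lay above the lowest Nemofl/fl library, and the difference of -0.54 (SE 0.24, limma adjusted p 0.0930) was not called. Of the 8 Cyp2d members 5 fell in NEMOIEC-KO. Cyp2d12 fell by 1.83, from 85.2 ± 21.3 to 29.5 ± 16.3 FPKM (mean ± SD, n = 5 each), and Cyp2d22 by 1.73, from 20.3 ± 1.5 to 6.10 ± 2.13 FPKM. Cyp2d22 and Cyp2d40 alone of the 8 rose in Il12b-labelled colon, by 1.2 and 0.76, and Cyp2d22 also in Il12a-labelled colon, by 0.97. Cyp2d9 and Cyp2d11 were not called in NEMOIEC-KO (differences -0.42 and -0.49) but were called lower in Il23a-labelled colon against Nemofl/fl (-1.19 and -0.77).

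Cyp2f2, known for oxidising naphthalene in airway cells (chr7:27119909-27133660), was at 20.4, 14.4, 14.5, 17.6 and 17.6 FPKM in Nemofl/fl and 3.89, 4.92, 1.1, 3.20 and 7.30 FPKM in NEMOIEC-KO. Its levels were 20.4, 3.09, 18.3, 19.0 and 21.8 FPKM in Il12b-labelled, 4.90, 21.5, 16.8, 16.5 and 14.6 FPKM in Il12a-labelled and 4.03, 7.79, 13.8, 2.12 and 7.02 FPKM in Il23a-labelled libraries. In Il12b-labelled colon 4 of 5 libraries reached the Nemofl/fl range or passed it, and in Il12a-labelled colon also 4 of 5. Cyp2f2 fell by 2.09 in NEMOIEC-KO (SE 0.50, adjusted p 0.00351) and rose by 1.82 and 1.78 in Il12b-labelled and Il12a-labelled colon (adjusted p 0.0132 and 0.0289, limma). Cyp2s1, a P450 of epithelia outside the liver, was at 61.6, 72.5, 70.5, 78.1 and 73.3 FPKM in Nemofl/fl, 44.3, 36.0, 13.6, 32.3 and 47.0 FPKM in NEMOIEC-KO, 43.3, 36.7, 47.6, 64.5 and 65.6 FPKM in Il12b-labelled, 51.4, 50.5, 63.8, 51.6 and 50 FPKM in Il12a-labelled and 21.9, 45.3, 36.8, 42.4 and 49.1 FPKM in Il23a-labelled libraries. Nemofl/fl and NEMOIEC-KO did not overlap, and Cyp2s1 fell by 1.14 (adjusted p 0.00199), while the Il12b-labelled difference of 0.65 was not called (adjusted p 0.0701). Of the less abundant Cyp2 genes, Cyp2u1, a fatty acid hydroxylase, fell by 1.08 and rose by 0.72 in Il12b-labelled colon, whereas Cyp2w1 and Cyp2r1, a vitamin D hydroxylase, had differences of -0.05 and -0.03 in NEMOIEC-KO.

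Cyp2j6 and Cyp2e1 did not follow the others. Cyp2j6, of a subfamily known for epoxidising fatty acids, was at 10.6, 9.84, 10.5, 10.2 and 10.4 FPKM in Nemofl/fl and 13.1, 13.3, 15.4, 17.5 and 13.0 FPKM in NEMOIEC-KO, then 9.84, 13.6, 9.95, 10.2 and 10.4 FPKM in Il12b-labelled, 18.8, 8.80, 9.44, 9.82 and 10.7 FPKM in Il12a-labelled and 12.3, 10.9, 12.1, 14.0 and 12.7 FPKM in Il23a-labelled libraries. All NEMOIEC-KO libraries were above all Nemofl/fl libraries, and the high values in the Il12b-labelled and Il12a-labelled groups belong to the 2 libraries that stand apart. It rose by 0.46 (adjusted p 0.0172) and fell by 0.40 in Il12b-labelled colon (adjusted p 0.0484, limma), a fall that was lost in 9 of the 10 fits leaving out 1 library (adjusted p up to 0.114). Cyp2e1, which oxidises ethanol and paracetamol (chr7:140763739-140774987), was at 0.0963, 1.87, 0.834, 1.66 and 1.55 FPKM in Nemofl/fl, 0.353, 0.846, 0.226, 2.19 and 0.912 FPKM in NEMOIEC-KO, 18.6, 0.636, 3.27, 8.25 and 3.25 FPKM in Il12b-labelled, 1.02, 1.71, 0.463, 0.0905 and 6.37 FPKM in Il12a-labelled and 0.430, 0.110, 2.07, 0.183 and 2.09 FPKM in Il23a-labelled libraries. Il12b-labelled replicates 1 and 4 and Il12a-labelled replicate 5 were highest. Cyp2e1 rose by 1.95 in Il12b-labelled colon (limma adjusted p 0.0444, lost in 8 of 10 such fits, with adjusted p up to 0.141) and was not called in NEMOIEC-KO (-0.28). The sums of 8 adipocyte markers were also highest in Il12b-labelled replicate 1, at 222.3 FPKM, and Il12a-labelled replicate 5, at 160.6 FPKM, against 24.0 to 92.7 FPKM elsewhere, and their part in the Cyp2e1 values was not tested.

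Cyp3a13 (chr5:137892932-137921619), the only Cyp3 member and of the subfamily that oxidises many drugs and steroids, was at 73.9, 48.5, 47.6, 62.2 and 53.3 FPKM in Nemofl/fl and 36.0, 37.8, 20.3, 34.4 and 35.5 FPKM in NEMOIEC-KO. It was at 50.8, 17.3, 47.6, 56.5 and 46.5 FPKM in Il12b-labelled, 38.6, 30.5, 30.6, 37.8 and 42.8 FPKM in Il12a-labelled and 23.7, 40.4, 34.2, 26.5 and 46.1 FPKM in Il23a-labelled libraries. Nemofl/fl and NEMOIEC-KO did not overlap, and the 4 higher Il12b-labelled libraries lay within or near the Nemofl/fl range. It fell by 0.80 (SE 0.25, limma adjusted p 0.0182, and 0.068 without NEMOIEC-KO replicate 3) and was called in no double mutant against NEMOIEC-KO (differences 0.34, 0.16 and 0.05).

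The Cyp4 genes, fatty acid hydroxylases that include leukotriene-inactivating CYP4F enzymes, were divided: 4 of 8 fell and 2 rose in NEMOIEC-KO, and the summed level of the family was 129 FPKM in Nemofl/fl and 128.6 FPKM in NEMOIEC-KO. Cyp4f40 was at 19.9, 11.1, 15.6, 17.0 and 15.8 FPKM in Nemofl/fl and 30.4, 32.9, 40.2, 38.1 and 24.6 FPKM in NEMOIEC-KO, and at 16.7, 32.9, 15.2, 16.1 and 19.1 FPKM in Il12b-labelled, 30.9, 12.9, 12.3, 17.7 and 16.6 FPKM in Il12a-labelled and 25.2, 23.7, 26.6, 30.2 and 23.8 FPKM in Il23a-labelled libraries. All NEMOIEC-KO and all Il23a-labelled libraries were above all Nemofl/fl libraries. It rose by 1.04 (adjusted p 0.00127) and fell by 0.76 in Il12b-labelled and 0.92 in Il12a-labelled colon (adjusted p 0.0168 and 0.0132, limma). Its neighbour Cyp4f13 in the same cluster (chr17:32506050-32947402) was at 42.5, 39.2, 38.1, 48.0 and 38.5 FPKM in Nemofl/fl, 26.8, 24.4, 16.1, 27.3 and 27.3 FPKM in NEMOIEC-KO, 43.0, 24.0, 34.6, 43.8 and 39.5 FPKM in Il12b-labelled, 23.1, 35.7, 40.2, 36.2 and 35.8 FPKM in Il12a-labelled and 16.8, 37.4, 31.9, 18.3 and 34.3 FPKM in Il23a-labelled libraries, and fell by 0.77 (adjusted p 0.00912). Within this cluster 1 gene rose and 2 of 5 fell.

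Cyp4f16, also there, was at 49.9, 30.3, 34.0, 39.9 and 43.1 FPKM in Nemofl/fl, 47.6, 34.9, 23.6, 50.2 and 41.3 FPKM in NEMOIEC-KO, 35.7, 29.6, 37.7, 55.4 and 38.5 FPKM in Il12b-labelled, 37.5, 32.6, 37.9, 40.6 and 35.7 FPKM in Il12a-labelled and 24.6, 46.5, 42.6, 31.6 and 33.0 FPKM in Il23a-labelled libraries. The groups overlapped throughout, with a NEMOIEC-KO difference of -0.02 (SE 0.19, adjusted p 0.935, limma). Cyp4f14 was not called in NEMOIEC-KO but rose by 1.19 in Il12b-labelled colon, to 42.1 ± 17.1 FPKM against 20.0 ± 12.2 FPKM in NEMOIEC-KO and 21.2 ± 5.37 FPKM in Nemofl/fl. Cyp4f18, a leukotriene hydroxylase known from neutrophils, was at 1.17, 2.13, 2.35, 3.11 and 2.48 FPKM in Nemofl/fl and 4.55, 7.71, 12.2, 3.99 and 4.52 FPKM in NEMOIEC-KO. It was at 3.51, 11.1, 5.63, 7.66 and 4.16 FPKM in Il12b-labelled, 5.06, 4.62, 5.27, 4.24 and 7.31 FPKM in Il12a-labelled and 9.67, 4.58, 9.70, 9.61 and 5.10 FPKM in Il23a-labelled libraries. It rose by 1.29 in NEMOIEC-KO (adjusted p 0.00328, limma). In NEMOIEC-KO and Il12b-labelled colon its highest value was in the library with the highest neutrophil sum. In Nemofl/fl and Il12a-labelled colon that library was at 2.13 and 5.06 FPKM, under the highest values of 3.11 and 7.31 FPKM. In Il23a-labelled replicates 1, 3 and 4 the neutrophil sums were 485.5, 85.2 and 158.6 FPKM and Cyp4f18 was at 9.67, 9.70 and 9.61 FPKM. In replicates 2 and 5 the sums were 2.5 and 3.3 FPKM and Cyp4f18 was at 4.58 and 5.10 FPKM. The part of neutrophils in the result was not tested. Cyp4f18 overlaps another gene, Zfp961. Cyp4v3, Cyp4f17 and Cyp4b1 fell by 0.78, 0.52 and 0.67.

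Of the P450 genes outside these families, Cyp27a1, a mitochondrial sterol hydroxylase of bile acid synthesis, was at 46.5, 57.4, 49.7, 60.2 and 58.4 FPKM in Nemofl/fl, 41.7, 42.6, 19.9, 29.7 and 30.7 FPKM in NEMOIEC-KO, 37.7, 29.1, 35.3, 42.9 and 39.9 FPKM in Il12b-labelled, 33.5, 38.6, 45.1, 40.7 and 38.3 FPKM in Il12a-labelled and 28.3, 42.8, 28.9, 20.2 and 39.9 FPKM in Il23a-labelled libraries. Nemofl/fl lay above every NEMOIEC-KO library, and Cyp27a1 fell by 0.76 (adjusted p 0.00396, limma), with no double mutant called against NEMOIEC-KO. Cyp20a1, whose substrates are little known, was at 7.11, 8.87, 7.88, 8.74 and 8.27 FPKM in Nemofl/fl, 6.95, 6.21, 6.32, 7.20 and 6.94 FPKM in NEMOIEC-KO, 7.86, 7.46, 7.5, 7.56 and 8.62 FPKM in Il12b-labelled, 7.11, 8.30, 7.42, 7.35 and 9.05 FPKM in Il12a-labelled and 10.0, 7.18, 6.42, 7.92 and 7.59 FPKM in Il23a-labelled libraries. It fell by 0.26 (limma adjusted p 0.0370) although the groups overlapped, and the call was lost in 6 of the 10 fits that leave out 1 library. Cyp39a1, an oxysterol hydroxylase, fell by 0.82 and rose by 0.45 and 0.52 in Il12b-labelled and Il12a-labelled colon, and Cyp26b1, which breaks down retinoic acid, rose by 0.67 in Il12b-labelled colon, from 0.320 ± 0.0939 to 0.875 ± 0.477 FPKM. With a mean of 0.542 FPKM, Cyp26b1 passed the threshold of 0.5 FPKM only through its Il12b-labelled values. Its rise there is therefore not independent of its choice as a member.

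**Figure D4:**
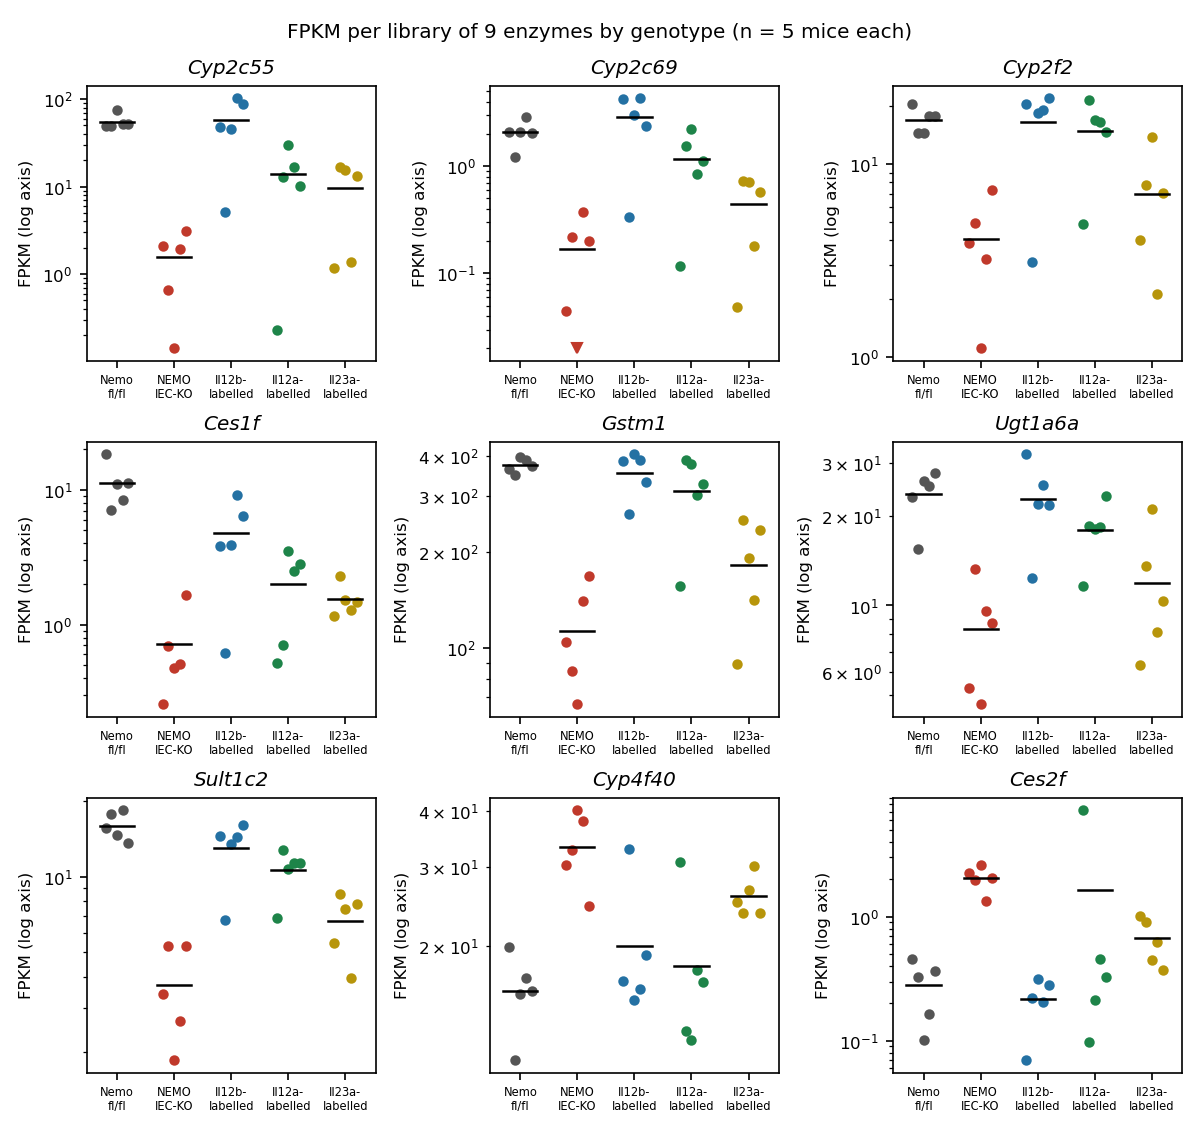
FPKM per library (points, log axis) of 9 enzymes by genotype, n = 5 mice each; lines are means and a triangle at the lower edge is a library listed at 0. Cyp2c55 in NEMOIEC-KO lies between 0.142 and 3.09 FPKM, under all Nemofl/fl libraries, and Cyp4f40 and Ces2f show the opposite order.

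The carboxylesterases hydrolyse ester drugs and lipids. All 4 Ces1 members (chr8:93166068-93337308) fell in NEMOIEC-KO, and their summed level was 32.9 ± 2.14 FPKM in Nemofl/fl, 7.46 ± 2.81 FPKM in NEMOIEC-KO, 22.3 ± 10.4 FPKM in Il12b-labelled, 14.2 ± 7.25 FPKM in Il12a-labelled and 8.20 ± 2.17 FPKM in Il23a-labelled colon (SD, n = 5 each). Ces1f was at 18.3, 7.04, 11.1, 8.46 and 11.3 FPKM in Nemofl/fl and 0.256, 0.697, 0.476, 0.511 and 1.66 FPKM in NEMOIEC-KO, and at 3.81, 0.618, 3.88, 9.19 and 6.36 FPKM in Il12b-labelled, 0.523, 0.709, 3.54, 2.49 and 2.79 FPKM in Il12a-labelled and 1.17, 2.29, 1.53, 1.28 and 1.48 FPKM in Il23a-labelled libraries. The lowest Nemofl/fl library was above every NEMOIEC-KO and Il23a-labelled library. Ces1f fell by 3.29 (SE 0.45, adjusted p 2.86e-05) and rose by 1.90 in Il12b-labelled colon (adjusted p 0.00556, limma).

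Ces1d, a triacylglycerol hydrolase, was at 9.32, 20.3, 15.1, 17.4 and 12.0 FPKM in Nemofl/fl and 5.11, 6.26, 4.16, 2.09 and 7.96 FPKM in NEMOIEC-KO, with 11.5, 5.87, 14.6, 18.8 and 10.2 FPKM in Il12b-labelled, 3.48, 11.3, 17.6, 6.47 and 6.91 FPKM in Il12a-labelled and 5.19, 6.02, 4.87, 3.92 and 2.89 FPKM in Il23a-labelled libraries. It fell by 1.5 and rose by 1.19 in Il12b-labelled colon (adjusted p 0.00340 and 0.0227, limma), a rise lost in 4 of the 10 fits that leave out 1 library. Ces1e was at 4.76, 5.12, 3.64, 4.72 and 4.40 FPKM in Nemofl/fl and 0.667, 0.569, 0.320, 0.419 and 1.18 FPKM in NEMOIEC-KO, with 3.28, 0.619, 4.76, 7.28 and 5.10 FPKM in Il12b-labelled, 0.719, 2.07, 3.38, 3.42 and 2.19 FPKM in Il12a-labelled and 0.240, 2.63, 1.19, 0.379 and 1.24 FPKM in Il23a-labelled libraries. Nemofl/fl and NEMOIEC-KO were apart in both genes. Ces1e fell by 2.19 and rose by 1.85 in Il12b-labelled colon (adjusted p 0.000759 and 0.00435). Ces1g fell by 1.06 and was called in no double mutant against NEMOIEC-KO.

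Of the 6 Ces2 genes (chr8:104734003-104969537), esterases prominent in the gut, 1 fell and 1 rose in NEMOIEC-KO. These shares are near those of all tested genes, of which 20.3% were called lower and 11.9% higher. Ces2c was at 179, 109.6, 138, 174 and 139 FPKM in Nemofl/fl, 66.5, 73.3, 31.2, 82.3 and 74.3 FPKM in NEMOIEC-KO, 142, 31.3, 140.2, 162 and 135 FPKM in Il12b-labelled, 90.7, 76.2, 88.3, 111 and 90.8 FPKM in Il12a-labelled and 26.4, 91.9, 79.5, 40.1 and 97.1 FPKM in Il23a-labelled libraries. Nemofl/fl lay above NEMOIEC-KO without overlap; Ces2c fell by 1.22 (adjusted p 0.0193, limma; 0.0712 without NEMOIEC-KO replicate 3), and the Il12b-labelled difference of 0.77 was not called (adjusted p 0.158), with Il12b-labelled replicate 2 at the NEMOIEC-KO level and the other 4 at the Nemofl/fl level. Ces2e, next to it, was at 53.7, 42.0, 49.8, 52.3 and 58.4 FPKM in Nemofl/fl, 84.1, 82.3, 42.5, 95.2 and 103 FPKM in NEMOIEC-KO, 48.5, 22.3, 55.1, 70.1 and 60.2 FPKM in Il12b-labelled, 125, 40.1, 59.6, 58.5 and 46.5 FPKM in Il12a-labelled and 23.0, 70.8, 67.7, 27.2 and 63.2 FPKM in Il23a-labelled libraries. Its NEMOIEC-KO difference of 0.61 was not called (adjusted p 0.178), and NEMOIEC-KO replicate 3 was at the Nemofl/fl level while the other 4 were above it. Ces2f was at 0.457, 0.325, 0.101, 0.163 and 0.364 FPKM in Nemofl/fl and 2.23, 1.96, 2.60, 1.34 and 2.06 FPKM in NEMOIEC-KO, then 0.0695, 0.219, 0.314, 0.207 and 0.282 FPKM in Il12b-labelled, 7.14, 0.0978, 0.213, 0.452 and 0.328 FPKM in Il12a-labelled and 1.01, 0.900, 0.450, 0.626 and 0.369 FPKM in Il23a-labelled libraries. Every NEMOIEC-KO library was above every Nemofl/fl and Il12b-labelled library, and the highest value of all was in Il12a-labelled replicate 1. Ces2f rose by 1.70 (SE 0.43, adjusted p 0.00528) and fell by 1.81 in Il12b-labelled colon (adjusted p 0.00548).

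The glucuronosyltransferases fell as a whole, with 3 of 3 Ugt1a and 2 of 2 Ugt2 members called lower in NEMOIEC-KO and all 5 higher in Il12b-labelled colon against NEMOIEC-KO. Ugt1a6a, which conjugates small phenols, was at 23.1, 15.5, 26.1, 25.2 and 27.9 FPKM in Nemofl/fl and 5.30, 13.3, 4.66, 9.62 and 8.75 FPKM in NEMOIEC-KO, and at 32.1, 12.4, 22.0, 25.4 and 21.8 FPKM in Il12b-labelled, 11.7, 18.5, 18.0, 18.3 and 23.2 FPKM in Il12a-labelled and 6.32, 13.6, 21.0, 8.12 and 10.3 FPKM in Il23a-labelled libraries. The lowest Nemofl/fl library was above the highest NEMOIEC-KO library. Ugt1a6a fell by 1.51 (adjusted p 0.000803) and rose by 1.43 and 1.13 in Il12b-labelled and Il12a-labelled colon (adjusted p 0.00204 and 0.0220, limma). Ugt1a7c was at 76.3, 29.0, 41.0, 41.3 and 44.5 FPKM in Nemofl/fl, 18.8, 24.5, 16.4, 28.3 and 27.3 FPKM in NEMOIEC-KO, 43.7, 29.0, 39.6, 54.8 and 47.3 FPKM in Il12b-labelled, 27.0, 26.6, 20.7, 42.1 and 39.0 FPKM in Il12a-labelled and 26.7, 33.0, 27.3, 22.6 and 36.2 FPKM in Il23a-labelled libraries, and fell by 0.95 and rose by 0.88 in Il12b-labelled colon. Ugt1a1, the bilirubin-conjugating enzyme, fell by 1.22, from 17.4 ± 4.50 to 7.26 ± 2.06 FPKM, and rose by 1.15 and 1.23. The Ugt1a genes (chr1:88095062-88220002) overlap and share their later exons, so the split of reads among them is uncertain and their levels are not independent.

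Ugt2b34 (cluster chr5:86889767-87013275), of the subfamily that conjugates steroids and drugs, was at 136, 73.7, 84.1, 96.0 and 83.8 FPKM in Nemofl/fl and 60.8, 47.9, 35.8, 67.2 and 53.1 FPKM in NEMOIEC-KO, and at 99.2, 63.8, 93.3, 103 and 101 FPKM in Il12b-labelled, 62.9, 58.6, 53.3, 82.9 and 69.3 FPKM in Il12a-labelled and 44.7, 68.6, 60.2, 59.8 and 85.7 FPKM in Il23a-labelled libraries. It fell by 0.83 and rose by 0.80 in Il12b-labelled colon (adjusted p 0.00243 and 0.00500, limma). Ugt2b35 was at 6.97, 4.13, 5.01, 5.17 and 5.41 FPKM in Nemofl/fl and 1.35, 1.29, 0.784, 1.64 and 1.37 FPKM in NEMOIEC-KO, with 4.81, 2.15, 4.02, 4.17 and 3.19 FPKM in Il12b-labelled, 2.12, 3.14, 2.66, 3.42 and 4.01 FPKM in Il12a-labelled and 1.76, 1.88, 1.97, 3.10 and 2.42 FPKM in Il23a-labelled libraries. Every double-mutant library was above every NEMOIEC-KO library. Ugt2b35 fell by 1.71 (SE 0.19, adjusted p 2.00e-06, the smallest of the members) and rose by 1.2 and 0.99 in Il12b-labelled and Il12a-labelled colon; the Il23a-labelled difference of 0.61 was not called (adjusted p 0.181).

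The mu-class glutathione transferases (Gstm, chr3:107895821-108044894) had the largest summed level among the transferases, 605.3 ± 34.3 FPKM in Nemofl/fl, 260.7 ± 64.7 FPKM in NEMOIEC-KO, 588.5 FPKM in Il12b-labelled, 539.7 FPKM in Il12a-labelled and 374.2 FPKM in Il23a-labelled colon. In this cluster 6 of 7 genes fell in NEMOIEC-KO and the same 6 rose in both Il12b-labelled and Il12a-labelled colon, and Gstm5 was called in none of these comparisons (NEMOIEC-KO difference -0.20). Gstm1 was at 366, 351, 397, 389.7 and 372 FPKM in Nemofl/fl and 104, 84.9, 66.5, 140 and 168 FPKM in NEMOIEC-KO, and at 386, 264, 405, 389 and 332 FPKM in Il12b-labelled, 156, 389.8, 379, 302 and 327 FPKM in Il12a-labelled and 88.8, 253, 192, 141 and 235 FPKM in Il23a-labelled libraries. All Il12b-labelled libraries were above all NEMOIEC-KO and all Il23a-labelled libraries. Gstm1 fell by 1.81 (SE 0.27, adjusted p 6.77e-05) and rose by 1.71 and 1.47 in Il12b-labelled and Il12a-labelled colon (adjusted p 0.000195 and 0.00302, limma). Gstm2 was at 109, 88.9, 114, 104 and 109.7 FPKM in Nemofl/fl, 49.6, 65.0, 59.9, 77.1 and 82.5 FPKM in NEMOIEC-KO, 118, 112, 119, 104 and 100.4 FPKM in Il12b-labelled, 88.7, 135, 109, 99.4 and 118 FPKM in Il12a-labelled and 78.2, 97.8, 112, 94.3 and 91.7 FPKM in Il23a-labelled libraries. It fell by 0.67 and rose by 0.75 and 0.72, with no overlap between NEMOIEC-KO and the Nemofl/fl, Il12b-labelled or Il12a-labelled libraries. The other 4 fell by 0.46 (Gstm4) to 1.47 (Gstm3).

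Of the alpha-class transferases, Gsta4, which conjugates the lipid peroxidation product hydroxynonenal, was at 31.6, 45.6, 38.7, 34.8 and 28.7 FPKM in Nemofl/fl, 16.2, 20.9, 30.0, 20.4 and 24.3 FPKM in NEMOIEC-KO, 23.7, 55.5, 42.7, 31.9 and 40.3 FPKM in Il12b-labelled, 36.8, 41.1, 50.7, 32.8 and 29.1 FPKM in Il12a-labelled and 37.2, 27.9, 22.2, 23.9 and 20.5 FPKM in Il23a-labelled libraries. NEMOIEC-KO replicate 3 and the standing-apart Il12b-labelled replicate 2 were each the highest of their group here, unlike in most members. Gsta4 fell by 0.68 and rose by 0.76 and 0.76 (adjusted p 0.0149, 0.0122 and 0.0240, limma). Gsta3 was at 27.4, 24.8, 29.7, 27.6 and 30.7 FPKM in Nemofl/fl, 13.8, 12.7, 13.2, 23.0 and 24.1 FPKM in NEMOIEC-KO, 20.7, 14.4, 25.6, 31.7 and 24.3 FPKM in Il12b-labelled, 30.3, 16.1, 28.1, 15.9 and 18.4 FPKM in Il12a-labelled and 22.4, 29.4, 18.5, 29.0 and 19.0 FPKM in Il23a-labelled libraries; it fell by 0.73 (adjusted p 0.0157) and was called in no double mutant against NEMOIEC-KO. Gsta1 had a difference of 0.62 in NEMOIEC-KO that was not called (adjusted p 0.171).

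Of the theta-class transferases (chr10:75774115-75837424), Gstt1 was at 43.6, 46.5, 46.6, 48.1 and 44.5 FPKM in Nemofl/fl and 20.5, 15.1, 12.5, 23.8 and 21.6 FPKM in NEMOIEC-KO, and at 49.3, 26.1, 40.9, 44.9 and 44.7 FPKM in Il12b-labelled, 19.5, 46.2, 50.3, 38.2 and 40.6 FPKM in Il12a-labelled and 15.0, 29.3, 24.2, 21.9 and 31.1 FPKM in Il23a-labelled libraries. The 5 Nemofl/fl values lay close together and far above NEMOIEC-KO. Gstt1 fell by 1.31 (SE 0.23, adjusted p 0.000297) and rose by 1.12 and 1.01 (adjusted p 0.00174 and 0.0106, limma). Gstt3 was at 53.0, 51.6, 56.0, 47.2 and 53.0 FPKM in Nemofl/fl, 39.8, 32.8, 28.3, 40.5 and 37.3 FPKM in NEMOIEC-KO, 66.2, 50.8, 49.6, 54.4 and 52.0 FPKM in Il12b-labelled, 43.6, 47.5, 49.1, 49.5 and 42.3 FPKM in Il12a-labelled and 32.1, 41.4, 48.0, 36.6 and 46.3 FPKM in Il23a-labelled libraries. It fell by 0.55 and rose by 0.61 and 0.38. Gstt2 was not called in NEMOIEC-KO (-0.11) and rose by 0.34 in Il12b-labelled colon.

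The sulfotransferases were divided. Sult1c2 (chr17:53829637-53846339) was at 15.6, 17.8, 14.6, 18.4 and 13.7 FPKM in Nemofl/fl and 3.41, 5.28, 1.85, 2.66 and 5.31 FPKM in NEMOIEC-KO, and at 14.6, 6.71, 13.6, 14.5 and 16.1 FPKM in Il12b-labelled, 6.83, 12.8, 10.7, 11.3 and 11.4 FPKM in Il12a-labelled and 5.45, 8.57, 7.48, 3.94 and 7.78 FPKM in Il23a-labelled libraries. NEMOIEC-KO was below every library of Nemofl/fl, Il12b-labelled and Il12a-labelled colon. Sult1c2 fell by 2.05 (SE 0.25, adjusted p 8.17e-06) and rose by 1.72 and 1.46 (adjusted p 9.76e-05 and 0.00174, limma). Sult1b1, which sulfates phenols and thyroid hormones, was at 167, 149, 167, 161 and 159 FPKM in Nemofl/fl, 204, 163, 155, 203 and 182 FPKM in NEMOIEC-KO, 144, 117, 153, 146 and 155 FPKM in Il12b-labelled, 190, 127, 126, 136 and 159 FPKM in Il12a-labelled and 114, 137, 146, 157 and 178 FPKM in Il23a-labelled libraries. It was not called in NEMOIEC-KO (0.17, adjusted p 0.280) and fell by 0.34 in Il12b-labelled colon (limma adjusted p 0.0441), a call lost in 8 of the 10 fits that leave out 1 library (adjusted p up to 0.101). Sult1d1, a catecholamine sulfotransferase beside Sult1b1 (chr5:87513339-87569027), fell by 0.77, from 64.6 ± 17.2 to 41.0 ± 19.0 FPKM.

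Sult1a1, the main phenol sulfotransferase, cannot be compared. It was at 211, 119, 162, 0 and 157 FPKM in Nemofl/fl, 71.8, 68.1, 29.8, 59.8 and 59.5 FPKM in NEMOIEC-KO, 0, 71.3, 0, 121 and 110.3 FPKM in Il12b-labelled, 45.4, 0, 105, 101 and 139.6 FPKM in Il12a-labelled and 0, 87.1, 0, 105 and 129 FPKM in Il23a-labelled libraries. It is listed at 0 in 6 libraries between values of 29.8 and 211 FPKM in the others, which may be failed estimates, and it overlaps another gene, Sgf29. No mean or fold is given for it, it is counted among the 68 and in their median differences as a member that was not called, and the family sum is taken without it. Sult1 without Sult1a1 was at 241.3 ± 21.7 FPKM in Nemofl/fl and 226.3 ± 39.7 FPKM in NEMOIEC-KO (SD, n = 5 each).

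**Figure D5:**
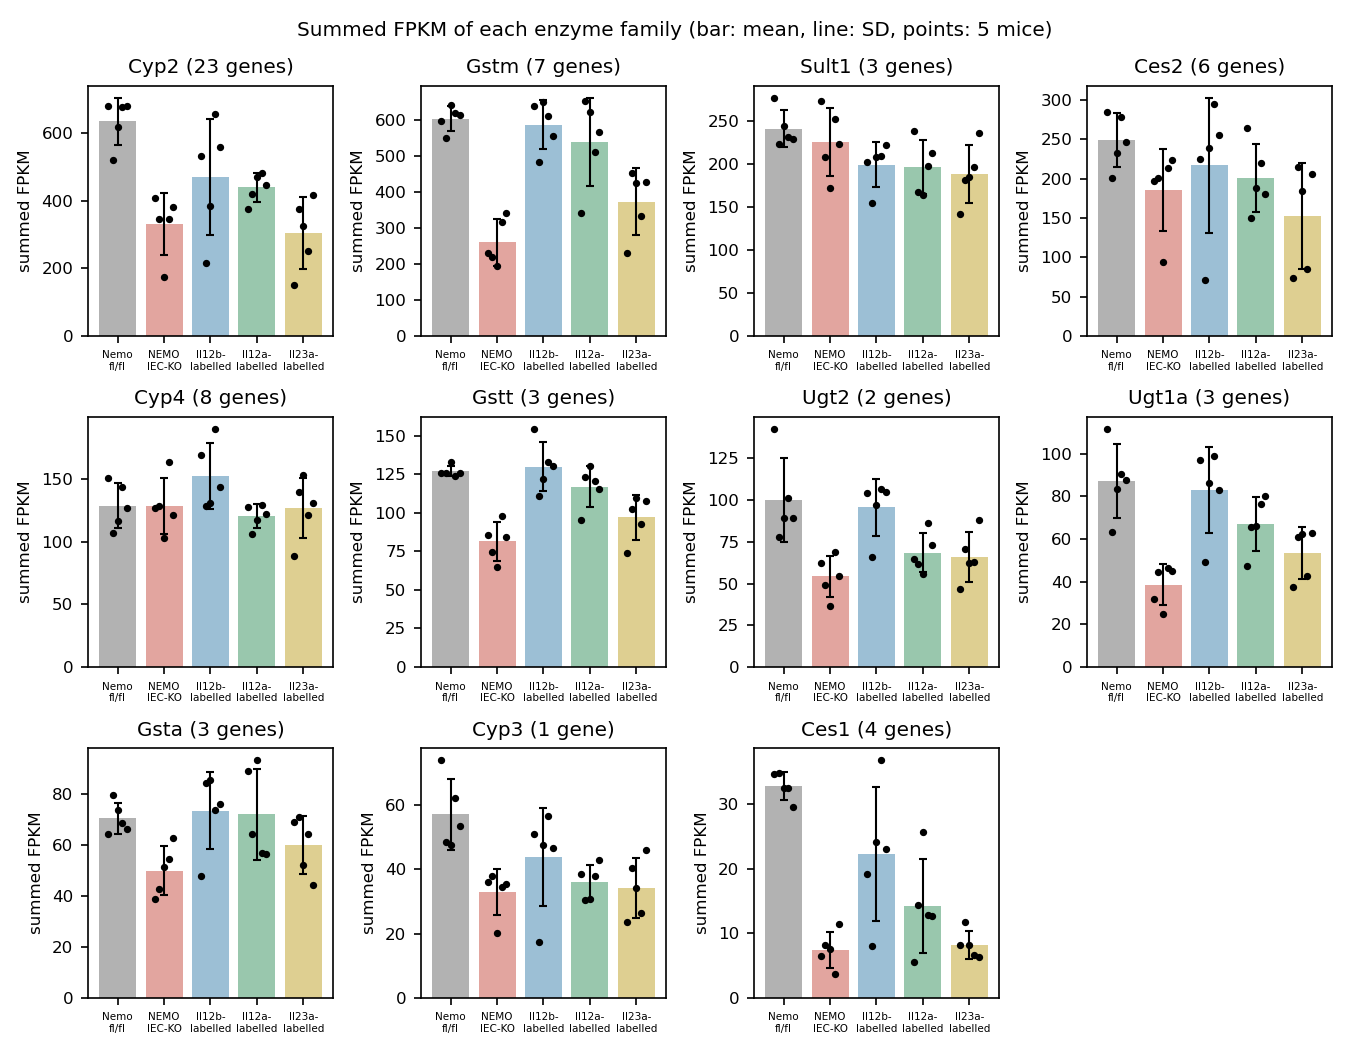
Summed FPKM by enzyme family and genotype (bars are means, whiskers SD, points libraries, n = 5; Sult1 without Sult1a1). The Gstm mean is 605.3 FPKM in Nemofl/fl, 260.7 FPKM in NEMOIEC-KO and 588.5 FPKM in Il12b-labelled colon, while the Cyp4 mean lies between 120.4 and 152.4 FPKM in all 5 genotypes.

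By summed level, Cyp2 was at 634.1 ± 69.1 FPKM in Nemofl/fl, 331 ± 91.2 FPKM in NEMOIEC-KO, 468.7 ± 171.5 FPKM in Il12b-labelled, 439 ± 42.4 FPKM in Il12a-labelled and 303.3 ± 105.7 FPKM in Il23a-labelled colon (SD, n = 5 each). The 67 enzymes other than Sult1a1 summed to 2125.1 ± 414.8 FPKM in Il12b-labelled, 1923.5 ± 113.0 FPKM in Il12a-labelled and 1508.9 ± 353.6 FPKM in Il23a-labelled colon. The lowest Il12a-labelled library, at 1735.3 FPKM, was above the highest NEMOIEC-KO library, at 1640.5 FPKM, whereas Il12b-labelled replicate 2, at 1428.5 FPKM, and the Il23a-labelled libraries overlapped NEMOIEC-KO.

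Other genes of the same pathways were counted from lists that do not hold members; of all tested genes 20.3% fell and 11.9% rose in NEMOIEC-KO, and 14% and 5.61% rose in Il12b-labelled and Il12a-labelled colon. Of 26 tested electron donors and other phase I enzymes, 22 fell and 0 rose in NEMOIEC-KO (list median -0.98, all-gene median -0.08 on the log2 scale), 20 rose and 0 fell in Il12b-labelled colon, and 9 rose in Il12a-labelled colon against NEMOIEC-KO. They include the epoxide hydrolase Ephx2 (-1.15, adjusted p 2.37e-05), the carbonyl reductase Cbr3 (-1.97, adjusted p 6.15e-05) and the flavin monooxygenase Fmo2 (-2.31, adjusted p 0.000234). Of 25 other conjugating enzymes 10 fell and 1 rose, among them Papss1, which makes the sulfate donor (-0.87, adjusted p 5.67e-05), and Gclc, of glutathione synthesis (-0.64, adjusted p 0.000305), and 10 rose in Il12b-labelled and 2 in Il12a-labelled colon, the latter near the share of all genes. Of 18 transporters 10 fell and 2 rose, among them Slco2b1 (-0.74, adjusted p 0.00225), Abcc3 (-0.74, adjusted p 0.00250) and the efflux pump Abcb1a (-2.11, adjusted p 0.00251), and 6 rose and 1 fell in Il12b-labelled colon, and 3 rose in Il12a-labelled colon.

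The regulators were counted in the same way. Of 24 nuclear receptors and other regulators of these enzymes, 5 fell and 4 rose in NEMOIEC-KO (list median -0.18), 4 rose and 1 fell in Il12b-labelled colon, and 2 rose and 1 fell in Il12a-labelled colon, shares close to those of all tested genes. Among its called genes, Foxa2 (-0.79, adjusted p 0.000750) and the vitamin D receptor Vdr (-1.26, adjusted p 0.00202) fell, and Cebpb (0.96, adjusted p 0.00411) rose. Some genes were named after their values were seen. Hnf4a, which encodes an HNF4 factor, had a difference of -0.18, adjusted p 0.323 in NEMOIEC-KO and was not called. Hnf4g, also on the list, encodes another HNF4 factor, and its value is not given here. Nr1i2 and Nr1i3, xenobiotic receptors on the list, fell (-0.40, adjusted p 0.00631 and -1.0, adjusted p 0.0211). The value of Ahr, also on the list, is not given here, and the other genes called higher are not named. All values in the last 2 paragraphs are differences on the log2(FPKM + 0.5) scale with Benjamini-Hochberg adjusted p from limma. In Il23a-labelled colon against NEMOIEC-KO 0 genes of the 4 lists were called.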

How the data were processed

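RNA of whole distal colon from 25 mice was measured by the study, with 1 library per mouse. The deposited values are FPKM per gene and library, computed by the authors, and no scaling between libraries is stated. Per the submitters' processing notes the build was GRCm38 and the tools TopHat2 2.0.10, Cufflinks 2.1.1 and DESeq2 1.10.1, whose roles, like the annotation release and the treatment of reads shared by paralogs, are not given in the sources used here. Positions, biotypes and names were taken by gene ID from a GRCm38 annotation, and promoter windows from RefSeq, GRCm38.p6.

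The 19266 genes that reached 0.2 FPKM in 5 or more libraries were tested with limma 3.58.1 (R 4.3.3) on log2(FPKM + 0.5), all 25 libraries in 1 fit with a mean-variance trend. P-values were two-sided and Benjamini-Hochberg adjusted over all tested genes, and a gene was called at an adjusted p under 0.05. Fold changes on this scale understate the change of low genes. All 68 members passed the filter. FPKM values carry no counts, so depth is unknown and the number of mice limits the precision.

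Every member may be named. Values in every library are given for the 2 members of each family with the highest mean, for up to 6 called members in each direction with the greatest difference in NEMOIEC-KO, and for up to 3 in each direction in each double mutant. Listed pathway genes were named from the 3 called genes with the smallest p in each list, and Hnf4a, Hnf4g, Nr1i2, Nr1i3 and Ahr were named besides. Members and lists were chosen with earlier results of these data known. Same-numbered replicates did not deviate together (median correlation 0.0071 over 50 same-number pairs and 0.0086 over 200 others), so numbers were not treated as pairs. Alternatives changed the pseudocount, filter, scaling, covariates and libraries used. 3 pseudogenes above 0.5 FPKM were left out. Some results on other genes of these pathways and on other motifs are not reported here.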

Additional observations from a re-analysis of the deposited data

Results flagged for a closer look

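In 18 of 165 groups of 5 libraries checked, 1 library stood far from the other 4, by a gap that exceeded 0.71 of the group's range. For 5 independent, normally distributed values that limit is passed in about 1 in 20 groups. The groups here are FPKM values of related genes in the same libraries, so that rate does not apply and no excess is claimed. Of the 18, 5 are low values in Il12b-labelled replicate 2: Ces2c at 31.27 FPKM (nearest other 135.3), Cyp3a13 at 17.29 FPKM, Ugt2b34 at 63.75 FPKM, Cyp2f2 at 3.09 FPKM and Sult1c2 at 6.714 FPKM. Cyp4f40 at 32.88 FPKM and Cyp2j6 at 13.64 FPKM were high in the same library. Il12a-labelled replicate 1 was high for Ces2e at 125 FPKM, Ces2f at 7.144 FPKM, Cyp4f40 at 30.85 FPKM and Cyp2j6 at 18.83 FPKM, and low for Cyp4f13 at 23.13 FPKM. NEMOIEC-KO replicate 3 was low for Cyp3a13 at 20.25 FPKM and Cyp4f13 at 16.11 FPKM. Single high values were Cyp2s1 at 63.79 FPKM in Il12a-labelled replicate 3, Gstt3 at 66.21 FPKM in Il12b-labelled replicate 1, Cyp2c55 at 75.43 FPKM in Nemofl/fl replicate 3 and Cyp2e1 at 6.374 FPKM in Il12a-labelled replicate 5. Cyp4f40, Cyp2j6 and Ces2f, which rose in NEMOIEC-KO, were thus high in the same Il12a-labelled library, and Cyp4f40 and Cyp2j6 also in the Il12b-labelled library where other enzymes were low.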

How the results depend on the processing

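The members called in NEMOIEC-KO against Nemofl/fl stayed within 1.5 times of 49 in 11 of 14 alternatives, and those in Il12b-labelled against NEMOIEC-KO within 1.5 times of 39 in 12 of 15, pseudocounts of 0.1 and 1 included. Leaving out each library in turn gave 41 to 49 (NEMOIEC-KO against Nemofl/fl), 29 to 44 (Il12b-labelled against NEMOIEC-KO), 9 to 29 (Il12a-labelled against NEMOIEC-KO), 0 to 1 (Il23a-labelled against NEMOIEC-KO), 0 to 1, 1 to 3 and 24 to 43 (Il12b-, Il12a- and Il23a-labelled against Nemofl/fl), 0 to 0 (Il12a- against Il12b-labelled), 1 to 32 (Il23a- against Il12b-labelled) and 0 to 9 (Il23a- against Il12a-labelled, 9 without Il12a-labelled replicate 1). For Il23a- against Il12b-labelled colon (11 called) the count was 3 with no filter, 5 with median-of-ratios or quantile scaling, 4 with Xist as a covariate and 5 within 1 library code. With the replicate block it was 7, and the block moved no other count by over 1.5 times (3 in place of 2 for Il12a-labelled against Nemofl/fl). Of the named members, the NEMOIEC-KO calls of Ces2c and Cyp3a13 were lost without NEMOIEC-KO replicate 3 (limma adjusted p 0.0712 and 0.068) and that of Cyp20a1 in 6 of 10 such fits. The Il12b-labelled calls against NEMOIEC-KO were lost in 9 for Cyp2j6, 8 for Cyp2e1 and Sult1b1 and 4 for Ces1d. Quantile scaling gave 6 for Il12a-labelled against Nemofl/fl, and Xist as a covariate 7 for Il23a-labelled against Nemofl/fl.

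With the smooth muscle score the counts were 24 (NEMOIEC-KO against Nemofl/fl), 5, 1 (Il12a- and Il23a-labelled against NEMOIEC-KO), 7, 3 (Il12a- and Il23a-labelled against Nemofl/fl), 1 (Il12a- against Il12b-labelled) and 0 (Il23a- against Il12b-labelled). With the epithelium score they were 0 in each comparison that had called members, and these differences changed sign: NEMOIEC-KO against Nemofl/fl, Ces1d 0.23, Cyp20a1 0.0311, Cyp4f40 -0.0307 and Cyp2j6 -0.29; Il12b-labelled against NEMOIEC-KO, Ces1d -0.15, Cyp4f40 0.0679 and Cyp2j6 0.18; Il23a-labelled against Nemofl/fl, Ces1d 0.0587, Cyp4f13 0.058, Cyp4f40 -0.31, Cyp2c55 0.32 and Cyp2f2 0.34. Within 1 library code the counts were 10 and 1 for Il12b- and Il12a-labelled against NEMOIEC-KO. The other 3 alternatives were added after seeing the data. Without the 2 libraries that stand apart, where higher counts were to be foreseen, the counts were 33 (Il12a-labelled against NEMOIEC-KO), 38 (Il23a- against Il12b-labelled) and 16 (Il23a- against Il12a-labelled). Among libraries with Xist under 1 FPKM they were 3 (Il12a-labelled against NEMOIEC-KO), 7, 1 (Il12a- and Il23a-labelled against Nemofl/fl) and 0 (Il23a- against Il12b-labelled); only 1 Il23a-labelled library has Xist under 1 FPKM, so its counts compare 1 library, assumed to vary like the others, and say nothing of stability. With the neutrophil score they were 13 (NEMOIEC-KO against Nemofl/fl), 18, 5 (Il12b- and Il12a-labelled against NEMOIEC-KO), 2, 8, 6 (Il12b-, Il12a- and Il23a-labelled against Nemofl/fl) and 0 (Il23a- against Il12b-labelled). The cause of these changes was not tested.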
